A study of Mus musculus with 27 samples.

Results

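Potassium channel genes were followed in 27 RNA-sequencing libraries of mouse cortex. The genes were chosen by name and level: the symbol starts with kcn and the mean over the 27 libraries is at least 0.5 FPKM, fragments per kilobase of transcript scaled by each library's total of counted fragments. This gave 73 members of 98 symbols with the prefix, in a table of 26264 symbols, and 25 symbols lay below the floor. The mean over all libraries chose the members, so levels are given as a description, while the comparisons between treatments and hemispheres used labels that the rule did not use.

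The mice were 16-week-old female 5xFAD/C57BL6 animals, bred with C57BL/6J, and every group carried the transgenes of that line, among them human APP with the Swedish, Florida and London mutations. No group without the transgenes was among the 27 libraries used, so the values do not bear on the transgenes. Each mouse received 500 nL of vehicle, R33 or R55 by stereotaxic microinjection into the lateral parietal association cortex of 1 hemisphere, with the drugs at 10 mM in saline with sulfobutylether beta-cyclodextrin and DMSO. R33 and R55 are pharmacological chaperones meant to stabilise the retromer, a complex that sorts cargo at endosomes. A block of cortex was taken from the injected and the contralateral hemisphere after 24 h. The 27 libraries came from 4 vehicle mice labelled J, L, M and AH (8 libraries), 5 R33 mice labelled K, N, O, AD and AE (9 libraries, with AE injected only) and 5 R55 mice labelled P, Q, R, AA and AB (10 libraries). AD is the label of a mouse, not the disease. Libraries held 15932197 to 38077027 fragments on genes, with a median of 27441308, and 0.534 to 0.756% of them fell on the 73 members.

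Potassium channels let potassium leave the cell along its gradient, which sets the resting potential, ends the action potential and limits repetitive firing. Voltage-gated (Kv) channels are tetramers of alpha subunits that open on depolarisation, joined by auxiliary subunits that alter their gating or traffic. Inward rectifiers (Kir) and K2P leak channels act near rest, and calcium- or sodium-activated channels couple firing to the ions that entered the cell.

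What most members share beyond the name is the selectivity filter, the short stretch of the pore that lets potassium pass and holds back sodium. It was searched in GENCODE coding sequences on GRCm39 as a run of 5 in-frame codons for serine or threonine, then valine, isoleucine or leucine, then glycine, then tyrosine or phenylalanine, then glycine. The run was present in 60 of the 71 members searched, against 158 of 21469 coding genes (0.736%) and 83 of the 21375 coding genes without the prefix (0.388%). A pair of runs was found in 6 members, all K2P genes, whose subunits carry a pair of pore loops each. The 11 members without it were all 8 auxiliary Kv subunits searched, Kcnmb4 and Kcnmb2, which encode beta subunits of the large-conductance calcium-activated channel, and Kcnk1. Kcne1l, which had no entry of that symbol, and the opposite-strand transcript Kcnmb4os2 were not searched. The sequences below are 39 bases of coding strand, 5′ to 3′, from members described further on, and capitals mark the 15 bases of the run. They show how members of different families fill the same 5 positions, with codons and residues that differ.
Kcna4: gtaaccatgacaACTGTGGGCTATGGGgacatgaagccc
Kcnb2: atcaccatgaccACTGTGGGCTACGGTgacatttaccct
Kcnh3: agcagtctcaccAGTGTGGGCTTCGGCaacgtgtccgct
Kcnf1: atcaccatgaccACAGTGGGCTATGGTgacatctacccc
Kcnma1: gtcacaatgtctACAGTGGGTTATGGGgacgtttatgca
Kcnk9 first: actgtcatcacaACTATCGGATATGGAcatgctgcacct
Kcnk9 second: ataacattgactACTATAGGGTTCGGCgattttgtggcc

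Exons are numbered along the annotated transcript, untranslated exons included. The stretch lies in exon 2 of Kcna4 (chr2:107126828-107126866, plus strand) and exon 3 of Kcnb2 (chr1:15780258-15780296, plus strand). It lies in exon 8 of Kcnh3 (chr15:99130798-99130836, plus strand), exon 1 of Kcnf1 (chr12:17225050-17225088, minus strand) and exon 8 of Kcnma1 (chr14:23578469-23578507, minus strand). In Kcnk9 the first stretch spans the junction of exons 1 and 2, and the second lies in exon 2 (chr15:72384556-72384594, minus strand). A match describes the letters and is no measure of channel activity.

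Marker levels were those of cortex with its glia. Summed FPKM of 8 excitatory neuron markers averaged 3550 over the 27 libraries, led by Nrgn at 1930, and the 6 markers of GABAergic interneurons averaged 552, led by Sst at 301. Astrocyte markers summed to 896 on average, led by Slc1a2 at 325, oligodendrocyte markers to 1520, led by Mbp at 576, and microglial markers to 301. Oligodendrocyte precursor, endothelial and mural markers summed to 9.23, 53.5 and 75.9, led by Pdgfra at 6.61, Cldn5 at 27.9 and Vtn at 43.3. All 4 erythrocyte haemoglobin genes were listed at 0 in every library, so this list cannot show how much blood the blocks held. No marker gene of these lists passed an adjusted p under 0.05 in limma in any of the comparisons below.

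Signs of neighbouring regions were uneven between libraries. The 6 striatal neuron markers, led by Ppp1r1b with a mean of 45.9 FPKM, summed to 281 FPKM in R33 injected N and 191 in vehicle injected L, against a mean of 72.5 and a lowest value of 35.7. The 8 choroid plexus markers, a list chosen after seeing the data, averaged 212 FPKM summed, of which Ttr made 203. Their sum was 1680 FPKM in R33 injected N, 1150 in vehicle contralateral J, 1090 and 719 in R33 injected and contralateral K, and 415 in R33 contralateral O. It was 156 FPKM or less in the other libraries, with the lowest, 4.35, in R55 injected R. Thus 4 of the 5 libraries with a high choroid plexus sum were R33 libraries and none was an R55 library.

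Endothelial markers split by the form of the mouse label. In the 9 libraries of mice with 2 letters, AH, AD, AE, AA and AB, their sum ran from 24.2 to 38.8 FPKM with a mean of 29.5, below all 18 libraries of mice with 1 letter, which ran from 40.4 to 103 with a mean of 65.4. The sums of the other marker lists overlapped between the label forms. No member had values that did not overlap between them, against 0.183% of all genes. Mice with 2 letters were 1 of the 4 vehicle mice, 2 of the 5 R33 mice and 2 of the 5 R55 mice. This split was noticed after seeing the values, and what the letters stand for is not stated.

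Another pair of libraries stood apart by transcript length. For each library, the deviation of log2 values from the mean over libraries was correlated with log2 length across 14152 tested genes that are not members, as a description, since genes are not independent. The correlation was -0.531 in R33 injected AD and -0.585 in R55 contralateral Q, and no lower than -0.316 in the other 25 libraries. These 2 libraries read long genes low, and they also had the lowest shares of fragments on the members, 0.534 and 0.55%. The limit of -0.5 that names them was set after seeing the values. Below, counts are also given without them.

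Levels spanned from 0.677 FPKM for Kcna5 to 197 FPKM for Kcnab2, with a median of 9.05. Of the 73 members, 35 had a mean of at least 10 FPKM, 38 lay between the floor and 10, and 9 of these were under 2. Kcnab2, on chromosome 4 from 152474250 to 152562651, encodes a beta subunit of Kv1 channels and alone made 14.3% of the summed FPKM of the members. The 10 most abundant members made 48.8%. No member was listed at 0 in any library, and of the 98 symbols only Kcnj1, named here because it was at 0 in all 27, had no fragment at all; the name was picked after seeing its values.

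The auxiliary Kv subunits, 9 members of 12 symbols, made the largest family share, 28.6% of the summed FPKM. After Kcnab2 came Kcnip2 at 51.8 and Kcnip3 at 42.6 FPKM, calcium-binding partners of Kv4 channels, and Kcnab3 at 35.0, another Kv beta subunit. The inward rectifiers followed with 11 members and 19.5%. Their most abundant gene was Kcnj10 at 73.9 FPKM, the main Kir channel of astrocytes, ahead of Kcnj4 at 59.4, a strong inward rectifier of neurons, and of Kcnj9 at 47.9, a subunit of the Kir channels opened by G proteins. Kcnj9 and Kcnj10 are neighbours on chromosome 1, from 172144668 to 172163568 on the minus strand and from 172168765 to 172201652 on the plus strand. Values of Kcnj10 ran from 34.7 to 132 FPKM over the libraries, against 144 to 275 for Kcnab2.

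Among the pore-forming Kv families, Kv3, the fast delayed rectifiers of interneurons and of fast-firing axons, made 7.99% of the summed FPKM with 4 members. The Kv10 to Kv12 family made 7.0% with 7 members led by Kcnh3 at 52.9, and Kv7, which carries the M-current that damps repetitive firing, made 6.98% with 4 members, of which Kcnq3 measured 20.7. Kv1, with channels of axons and terminals, made 6.7% with 6 members led by Kcna2 at 32.7 FPKM. The electrically silent subunits, which act only in tetramers with Kv2 subunits, made 6.16% with 8 members led by Kcnf1 at 26.8. Kv4, the somatodendritic A-type channels, made 2.49% with 3 members led by Kcnd2 at 21.8. Kcnb2, a Kv2 delayed rectifier of the soma, measured 2.14 FPKM.

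Leak and ion-activated channels made up the rest. The K2P family made 7.63% with 9 members led by Kcnk1 at 51.9 FPKM. Calcium- and sodium-activated channels and their beta subunits made 4.49% with 9 members, led by the sodium-activated Kcnt1 at 14.4 and including Kcnma1, the pore of the large-conductance BK channel, at 12.7. Kcnmb4os2, at 2.77 FPKM, is annotated on the strand opposite to Kcnmb4 and overlaps its start on chromosome 10, from 116309068 against an end of Kcnmb4 at 116309848. The libraries were stranded, but how strands were counted is not stated, so it is not known whether reads of this pair were told apart where they overlap.

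**Figure D1:**
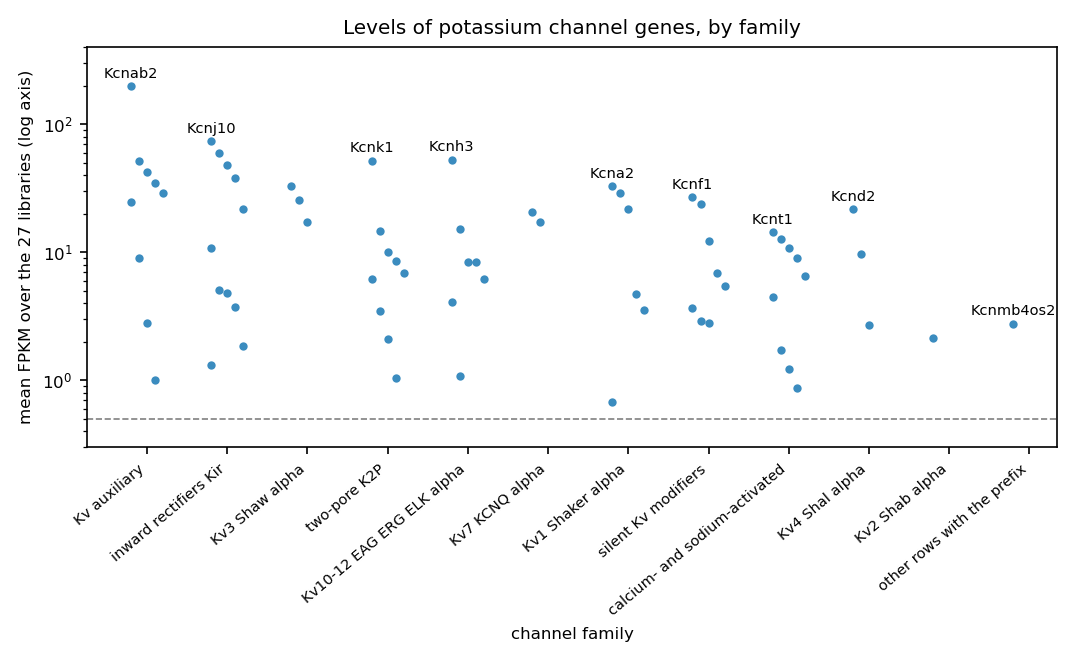
Mean FPKM over 27 libraries on a log axis for 69 of the 73 members, grouped by channel family, with 1 point per gene and the most abundant gene named for most families; the dashed line is the floor of 0.5 FPKM. The auxiliary Kv subunit Kcnab2 stands highest at 197 FPKM, and Kcna5 at 0.677 is nearest to the floor.

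Just inside the floor were Kcna5 at 0.677 FPKM, Kcnu1 at 0.868 and Kcne2 at 1.0, and just outside were Kcnd3os at 0.473, Kcne4 at 0.464 and Kcnj14 at 0.437. Kcne2 passed the floor through a few libraries, with a median of 0.112 FPKM, or 5 fragments, and a highest value of 8.48 FPKM, or 508 fragments. Such a member had to vary between libraries to be counted. A floor of 0.25 FPKM would give 80 members and a floor of 1 FPKM 71.

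Across the 27 libraries the coefficient of variation of the members had a median of 20.3%, against 14.9% over all 14225 genes at or above the same floor, which are the genes tested below. The steadiest was Kcnk1, a K2P leak channel, at 10.2%, from 38.4 to 58.8 FPKM. Close behind were Kcnip3 at 11.2%, Kcnd1 at 11.8% and Kcnh2 at 12%, of which Kcnd1 was named after its value was seen. The most variable were Kcne2 at 207% and Kcnj13 at 139%, then Kcna5 at 52.2% and Kcne1l at 41.5%, with Kcne1l also named after its value was seen.

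The first comparison asked what R55 did against vehicle, with limma on log2(FPKM + 1), treatment and hemisphere as additive factors, and Benjamini-Hochberg adjustment over the 14225 genes. No member passed an adjusted p under 0.05, against 0.00703% of all genes, and the smallest adjusted p of a member was 0.553. That share is 1 gene. Without R33 mouse AD 45 genes passed, without vehicle mouse AH 9 and without the 2 libraries apart 4, with no member among them. The smallest adjusted p of a member in limma was then 0.169, 0.148 and 0.315. At an unadjusted p under 0.05 there were 12 members in limma and 9 in limma voom, an alternative fit that weights each value by its precision. In voom 1136 of the 14225 genes had such a p. Of the 12, 5 of the 73 were higher, against 4.58% of all genes, and 7 were lower, against 3.73%. The balance of directions depended on the scaling: with median-of-ratios scaling 1 member was higher and 7 lower, beside 513 and 624 of all genes, where the values as deposited gave 651 and 531. With the number of letters in the mouse label as a covariate 2 were higher and 6 lower, beside 595 and 473. In all, 35 members were higher and 38 lower with a median log2 fold change of -0.003, against a median of 0.023 over all genes. The extremes were -0.40 and 0.51. Without the 2 libraries apart 43 were higher and 30 lower with a median of 0.018, against 0.019. With the length trend removed 40 were higher and 33 lower with a median of 0.023, against 0.002. These counts were not tested as a group, and nothing particular to potassium channel genes follows from them. In such bulk tissue, fewer cells of a type and less RNA per cell cannot be told apart.

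Among members with a small p for R55, those with lower values are described first. Kcnma1, on chromosome 14 from 23339499 to 24064559, measured 15.4, 13.1, 12.9 and 15 FPKM in the injected hemisphere of vehicle mice J, L, M and AH and 13.8, 16.6, 13.5 and 18.7 in the contralateral one. In R55 mice P, Q, R, AA and AB it measured 13.8, 15, 11.2, 11.7 and 12.6 FPKM on the injected side and 12.2, 6.71, 10.7, 11.7 and 9.1 on the contralateral side. The injected groups overlapped, while the contralateral R55 libraries all lay below the contralateral vehicle libraries, with Q, a library apart by length, the lowest. The share of all genes that separate in this hemisphere is not given here. In limma on the contralateral hemisphere alone, 11.2% of all genes had an unadjusted p under 0.05. Per mouse, Kcnma1 averaged 14.9 ± 1.49 FPKM for the 4 vehicle animals and 11.5 ± 0.925 for the 5 given R55 (mean ± SD). The log2 fold change was -0.36 (SE 0.14) in the fit of all libraries. That fit, like the others with an SE here unless stated, counts both hemispheres of a mouse as separate. That difference was -0.13 in the injected hemisphere alone and -0.60 in the contralateral one alone, and -0.28 with the length trend removed from each library. The interaction of R55 with hemisphere for Kcnma1 was 0.47 (SE 0.27, adjusted p = 1.0, limma; 0.819 with the mouse as a block).

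Kcnb2, on chromosome 1 from 15356816 to 15793974, encodes a Kv2 delayed rectifier and has the longest transcript of the members, 15494 bases. Its mouse means, taken on the log2 scale over both hemispheres, were 2.18, 2.75, 2.32 and 2.59 FPKM in vehicle mice J, L, M and AH and 2.07, 1.96, 1.93, 1.93 and 1.83 in R55 mice P, Q, R, AA and AB. All 5 R55 mice lay below the lowest vehicle mouse, by little, and the 2 members with mouse means that did not overlap, Kcnma1 and Kcnb2, both lower, compare with 2.33% of all genes. The log2 fold change of Kcnb2 was -0.23 (SE 0.096) as deposited and -0.001 with the length trend removed. With the trend removed the difference was thus near 0.

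Kcnq3, a subunit of the M-channel on chromosome 15 from 65858236 to 66158491, is a long transcript as well, with 11821 bases. It ran from 16.7 to 30 FPKM with a median of 23.9 in the 8 vehicle libraries and from 11.4 to 22.9 with a median of 18.8 in the 10 R55 libraries. The groups overlapped, and the lowest R55 library was contralateral Q. The log2 fold change of Kcnq3 was -0.33 (SE 0.13), and -0.15 with the length trend removed.

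Kcna4 and Kcng2 were lower with or without the length trend. Kcna4, on chromosome 2 from 107117626 to 107128847, encodes the inactivating A-type Kv1 channel of axons, and its mouse means were 6.94, 5.28, 7.38 and 3.73 FPKM in vehicle mice J, L, M and AH. After R55 they were 5.39, 4.87, 3.45, 4.21 and 3.19 FPKM in mice P, Q, R, AA and AB. Vehicle mice L and AH lay within the range of the R55 mice, so the groups overlapped. Kcng2, a silent subunit, had mouse means of 4.4, 2.91, 4.22 and 2.71 FPKM in vehicle and 2.58, 2.94, 2.02, 2.45 and 2.34 after R55. Its vehicle mice fell into a high pair, J and M, and a lower pair, L and AH. By mouse mean 4 of 5 R55 mice lay below every vehicle mouse, and Q, at 2.94, did not. The share of all genes with 4 of 5 R55 mice beyond every vehicle mouse is not given, here or for the members below. The log2 fold change was -0.37 (SE 0.14) for Kcna4 and -0.38 (SE 0.14) for Kcng2, and -0.36 and -0.42 with the length trend removed.

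Higher values after R55 were led by Kcnab3, the Kv beta subunit on chromosome 11 from 69217066 to 69223870. In vehicle mice J, L, M and AH it measured 28.9, 42.3, 30.5 and 31.0 FPKM on the injected side and 9.41, 18.5, 28.2 and 28.8 on the contralateral side. In R55 mice P, Q, R, AA and AB the values were 30.4, 35.1, 48.6, 30.7 and 30.6 on the injected side and 45.1, 23.1, 48.3, 36.7 and 45.4 on the contralateral side. The injected sides overlapped. On the contralateral side the vehicle libraries, with J and L lowest, all lay below 4 of the 5 R55 libraries, while Q lay among them. By mouse mean 4 of 5 R55 mice lay above every vehicle mouse, and Q, at 28.5, did not. The log2 fold change was 0.51 (SE 0.22), made of 0.07 in the injected hemisphere alone and 0.95 in the contralateral one alone. Kcnj9 ran from 31.1 to 53.6 FPKM with a median of 46.6 in vehicle and from 43.0 to 57.9 with a median of 52.4 after R55, a log2 fold change of 0.22 (SE 0.099). By mouse mean 4 of 5 R55 mice lay above every vehicle mouse in Kcnj9, with AA at 44.3 the exception. By library the groups overlapped, with vehicle injected L at 53.6 and R55 injected and contralateral AA at 43.0 and 45.7.

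**Figure D2:**
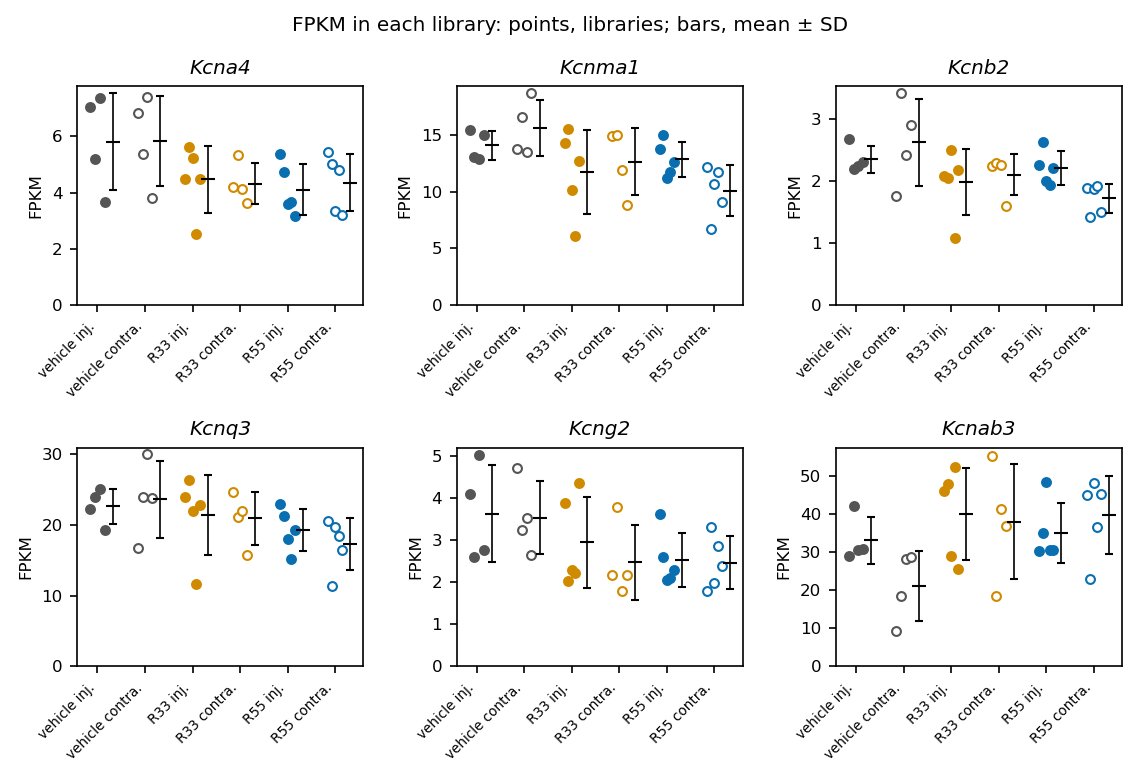
FPKM of Kcna4, Kcnma1, Kcnb2, Kcnq3, Kcng2 and Kcnab3 in each treatment and hemisphere; each point is a library, filled for the injected and open for the contralateral hemisphere, and bars give the mean ± SD of the group. The contralateral Kcnma1 libraries lie lower after R55 (6.71 to 12.2) than in vehicle (13.5 to 18.7), and Kcnab3 has its lowest values, 9.41 and 18.5, in contralateral vehicle libraries.

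Families split in direction, and some splits depended on the length trend. In the R55 comparison all 6 Kv1 members were lower with a median of -0.098, but 4 of 6 with the length trend removed and 4 of 6 without the 2 libraries apart. All 3 Kv4 members were lower in every scaling tried. Of the Kv7 members 3 of 4 were lower, and 2 of 4 with the length trend removed, without the 2 libraries apart or in voom. Kv3 went the other way, with a median of 0.076, and of 0.11 with the length trend removed and 0.106 without the 2 libraries apart. The K2P family had 5 of 9 higher, the inward rectifiers 6 of 11, the auxiliary subunits 5 of 9, the ion-activated channels 5 of 9, the silent subunits 5 of 8 and the Kv10 to Kv12 family 4 of 7. Each of these 6 counts moved by at most 2 genes in the other scalings, and none of the family counts was tested.

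R55 was compared with vehicle in each hemisphere, too. At an unadjusted p under 0.05 there was 1 member in the injected hemisphere alone, against 1.22% of all genes, and 13 in the contralateral one alone, against 11.2%. No member passed the adjusted p in either. With the correlation between hemispheres of a mouse modelled, 4 members had an unadjusted p under 0.05, against 4.04% of all genes, and all 4, Kcna4, Kcng2, Kcnma1 and Kcnq3, were lower. With the length trend removed there were 6, against 6.8%, and without the 2 libraries apart 12, against 9.94%. Leaving out vehicle mouse J gave 6 members among 1759 genes, and leaving out vehicle mouse AH gave 17 among 1695.

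R33 against vehicle shares its vehicle libraries with the first comparison, so the values of both stand side by side and are not independent. No member passed the adjusted p in limma, against 0.0% of all genes, with a smallest adjusted p of 0.858. At an unadjusted p under 0.05 there were 11 members in limma and 10 in voom, the latter among 800 genes. Of the 11, 5 were higher, against 3.11% of all genes, and 6 lower, against 2.59%. In all, 34 members were higher and 39 lower with a median of -0.030, against 0.017 over all genes. Without the 2 libraries apart 38 were higher and 35 lower with a median of 0.010, against 0.006. With the length trend removed 39 were higher and 34 lower with a median of 0.006, against 0.003. Leaving out R33 mouse AD, whose injected library is apart by length, left 1 member among 534 genes at that unadjusted p, and without the 2 libraries apart there were 6, against 4.17%. With the length trend removed there were 9, against 5.18%, and with the correlation within mice modelled 3, against 2.25%.

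The genes with the smallest p after R33 were partly those listed for R55. Kcna4 had a log2 fold change of -0.32 (SE 0.14) after R33 and -0.37 after R55, and Kcng2 -0.31 (SE 0.14) and -0.38. Kcnab3 was at 0.53 (SE 0.23) and 0.51, again with the larger part in the contralateral hemisphere, 0.83 against 0.23 in the injected one. Since vehicle is in both comparisons, an unusual vehicle mouse moves both.

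Kcnip1, a calcium-binding Kv4 partner that is found in interneurons, ran from 5.69 to 9.35 FPKM with a median of 8.37 in vehicle and from 7.31 to 14.1 with a median of 9.09 after R33. The highest values, 14.1 and 12.3, were R33 injected O and AD, R33 injected N and contralateral AD also lay above every vehicle library, and the other R33 libraries overlapped with vehicle. Its log2 fold change was 0.27 (SE 0.1) after R33 and 0.20 after R55. The summed GABAergic interneuron markers stood at 737 FPKM in R33 injected AD, their highest library, and 6 of 6 of these markers were higher after R33 with a median of 0.156. In R33 injected O, where Kcnip1 was highest, Gad1, Gad2 and Slc32a1 of this list had their highest values of the 27 libraries, 137, 65.0 and 61.3 FPKM. Vip had its lowest value there, 16.4, Pvalb measured 52.6 and Sst 236, and the sum was 568. The sums of R55 contralateral Q and AA were 693 and 690, with Kcnip1 at 8.6 and 10.3. The part of these markers in the Kcnip1 value was not tested.

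Kcng4, a silent subunit, was the member whose mouse means did not overlap between R33 and vehicle, 1 of 73 against 0.773% of all genes. The means were 2.96, 3.04, 3.01 and 3.2 FPKM in vehicle mice J, L, M and AH and 3.99, 4.11, 3.66, 4.0 and 3.81 in R33 mice K, N, O, AD and AE. By library the groups overlapped, since vehicle ran from 3.45 to 4.58 FPKM on the injected side and from 1.92 to 2.97 on the contralateral side, and R33 from 2.67 to 6.11. Its log2 fold change was 0.27 (SE 0.12). The highest libraries, R33 injected N at 6.11 and vehicle injected L at 4.58 within their groups, were those with the highest striatal marker sums, but R55 contralateral R, with Kcng4 at 5.27, had a striatal sum of 70.6. All 6 striatal markers were higher after R33 with a median of 0.201, with 0 passing the adjusted p and 0 at an unadjusted p under 0.05. After R55, 5 of 6 were lower with a median of -0.228, while 4 of 5 R55 mice lay above every vehicle mouse in Kcng4. The part of striatal tissue in Kcng4 was not tested.

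Transcript length went with the log2 fold change in both comparisons with vehicle. Across all 14225 genes Spearman's rho of log2 fold change with length was -0.458 for R55 and -0.43 for R33, and across the 73 members -0.356 and -0.396, as a description across genes that share libraries. Members are long, with a median of 4061 bases against 3079 for tested genes, and 53 of 73 (72.6%) are longer than the median tested gene. Among the longest members, 24 genes of 5309 to 15494 bases, 20 were lower after R55 with a median of -0.055 and 18 after R33 with a median of -0.086. Among the shortest, 25 genes of 1005 to 3531 bases, 9 were lower in either comparison, with medians of 0.082 and 0.070. After removal of the length trend by lowess, the member rho was -0.002 for R55 and -0.075 for R33, and 11 of the 24 longest members were lower after R55 and 13 after R33. For the comparisons that follow, rho was -0.13 over all genes and -0.086 over the members for R55 against R33, 0.219 and 0.2 for injected against contralateral, and 0.507 and 0.371 for the interaction of R55 with hemisphere. Over all genes the last was the strongest of the 5, and over the members R33 against vehicle was.

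**Figure D3:**
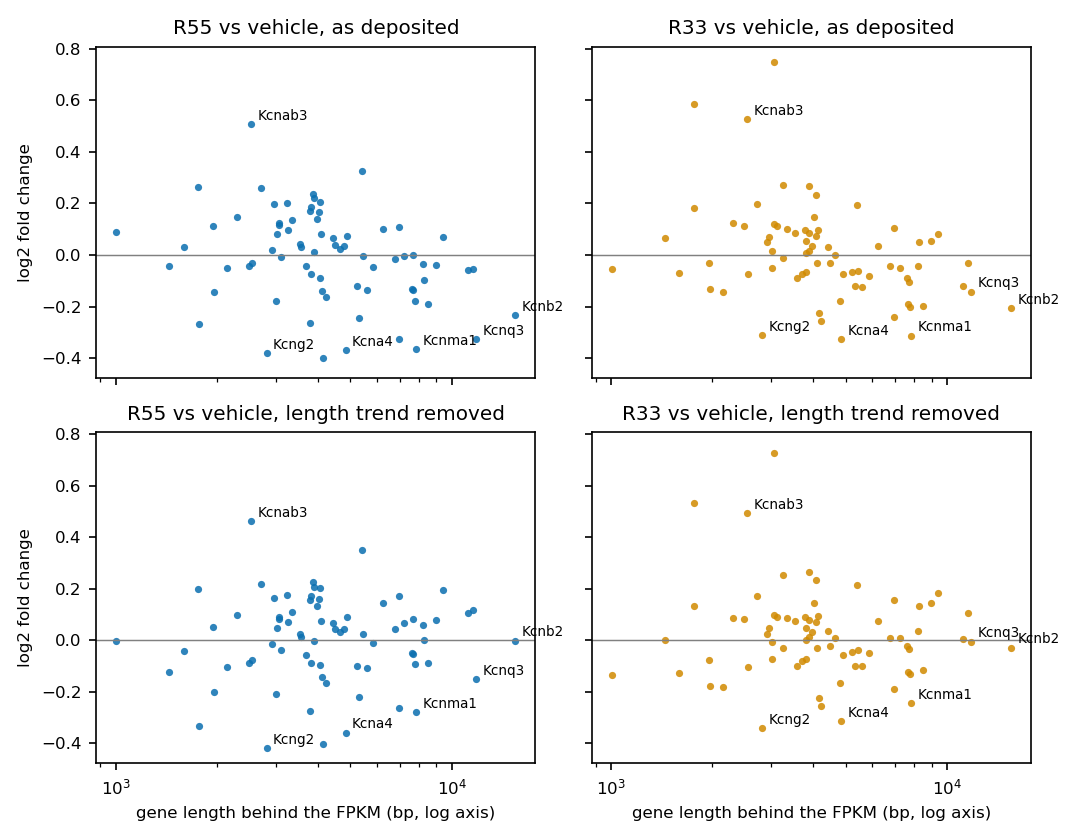
Log2 fold change of the 73 members against transcript length in bases, R55 against vehicle on the left and R33 against vehicle on the right, as deposited in the upper row and with the length trend of each library removed in the lower row; each point is a gene. In the upper row the longest members lie mostly below 0, 20 of 24 after R55 and 18 of 24 after R33, and in the lower row 11 and 13 of 24.

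R55 against R33 compares the drugs at the same dose and time. No member passed the adjusted p in limma, against 0.0% of all genes, and the smallest adjusted p was 1.0. Limma gave 2 members at an unadjusted p under 0.05, 0 higher, against 0.808% of all genes, and 2 lower, against 0.64%. Voom gave 1 member at that p, among 202 genes. In all, 39 members were higher with R55 and 34 lower, with a median of 0.009 against 0.004 over all genes. In the injected hemisphere alone 47 members were higher and 26 lower, with a median of 0.109 against -0.003 over all genes. In the contralateral one alone 29 were higher and 44 lower, with a median of -0.059 against 0.014. With the length trend removed these medians of the members were 0.077 and -0.020. The hemispheres were not tested against each other here. Without the 2 libraries apart there were 5 at the unadjusted p, against 3.55%, and with the correlation within mice modelled 0, against 0.548%. No member had mouse means that did not overlap, against 0.112% of all genes.

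Of the 2 members, Kcnk2, the mechanosensitive K2P channel TREK-1, ran from 9.34 to 18.7 FPKM with a median of 12.8 after R55 and from 13.0 to 19.0 with a median of 15.4 after R33. The groups overlapped, with R55 mice R, AA and AB low on both sides. The difference was -0.24 on the log2 scale (95% interval -0.44 to -0.03, SE 0.1). For members named in the comparisons with vehicle the 95% intervals of the difference between the drugs included 0 and were wide, -0.31 to 0.22 for Kcna4, -0.33 to 0.23 for Kcnma1 and -0.46 to 0.42 for Kcnab3. These intervals do not show that the drugs act alike.

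Kcne2, an auxiliary subunit abundant in choroid plexus epithelium, differed by -0.85 on the log2 scale. It reached the floor only through R33 libraries, since its mean over the 18 vehicle and R55 libraries was 0.493 FPKM. The rule thus chose it by being high in R33, so its p and interval are not read as a test, and its place in the count of 2 says nothing. In R33 mice K, N, O, AD and AE it measured 4.84, 8.48, 0.112, 0.153 and 0.0888 FPKM on the injected side, and 2.61, 0.143, 1.78 and 0.0412 in K, N, O and AD on the contralateral side. In R55 mice P, Q, R, AA and AB it measured 0.318, 0.113, 0.04, 0.104 and 0.0672 on the injected side and 0.591, 0.0534, 0.0802, 0.573 and 0.084 on the contralateral side. The difference rested on 4 R33 libraries, those of K, injected N and contralateral O, and the remaining R33 libraries lay within the R55 range. Without R33 mouse K the difference was -0.54. A vehicle library, contralateral J, read 5.74 FPKM, with the other vehicle libraries at 0.575 or less.

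Kcnj13, the inward rectifier of choroid plexus and other epithelia, followed the same libraries. It measured 8.08 FPKM in R33 injected N, 5.2 in R33 injected K, 4.06 in vehicle contralateral J, 2.36 in R33 contralateral O and 2.24 in R33 contralateral K, and 1.53 or less in all others. These 5 libraries are the 5 with the highest summed choroid plexus markers. The log2 difference of Kcnj13 between R55 and R33 was -0.63 (95% interval -1.29 to 0.04, SE 0.33), and between R33 and vehicle 0.75 (95% interval 0.04 to 1.45, SE 0.34). All 6 tested choroid plexus markers were lower with R55 than with R33, with a median of -0.973, and 6 of 6 were higher with R33 than vehicle, with a median of 0.597. This list was chosen after the high R33 libraries were seen, so these counts describe the same libraries and are no test. The part of choroid plexus tissue in these values was not tested.

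**Figure D4:**
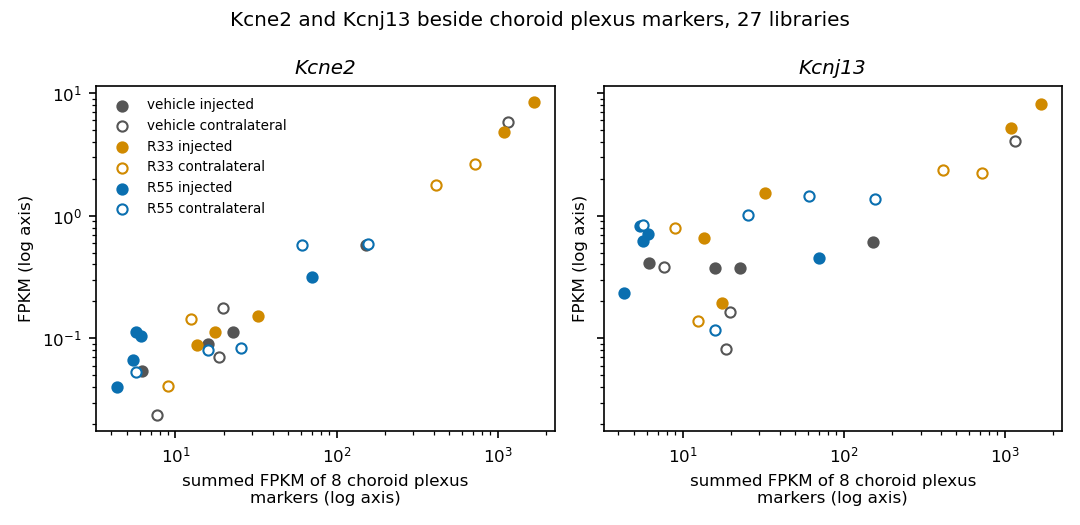
FPKM of Kcne2 and Kcnj13 against the summed FPKM of 8 choroid plexus markers in each of 27 libraries, both axes logarithmic, with colours for treatment, filled points for the injected and open points for the contralateral hemisphere. The 5 libraries with marker sums from 415 to 1680 FPKM hold the 5 highest values of both genes.

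The other members listed by the smallest p for R55 against R33 had intervals that include 0. These were Kcnk12, a K2P gene, at 0.14 (95% interval -0.02 to 0.31), Kcnip3 at 0.12 (-0.03 to 0.27), Kcna5 at -0.19 (-0.44 to 0.06), Kcnmb4 at 0.14 (-0.06 to 0.34) and Kcnf1 at 0.21 (-0.08 to 0.51). Kcnf1 was at 0.56 in the injected hemisphere alone and -0.178 in the contralateral one alone. In the injected one it was 1 of 3 members at an unadjusted p under 0.05, among 582 genes. By family, 8 of 11 inward rectifiers and 7 of 9 K2P genes were higher with R55 than with R33, and 7 or 8 and 6 or 7 in each scaling tried. The auxiliary subunits were lower in 7 of 9, or 6 of 9 without the 2 libraries apart, counts that hold Kcne2. Since the rule chose Kcne2 through its R33 values, its direction in these counts says nothing.

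The injected and the contralateral hemisphere were compared over the 3 treatments. No member passed the adjusted p in limma, against 0.0% of all genes, with a smallest adjusted p of 1.0. Limma and voom each gave 3 members at an unadjusted p under 0.05. In limma 3 were higher on the injected side, against 1.55% of all genes, and 0 lower, against 2.25%. In voom the 3 were among 571 genes, and all were higher. When each mouse was its own block there were 4, all higher, against 3.22% higher and 3.25% lower over all genes, and without the 2 libraries apart 5, against 5.08%. In all, 44 members were higher on the injected side and 29 lower, with a median of 0.028 against 0.000. Each treatment was also fitted alone with the mouse as a block. In vehicle mice 47 members were higher and 26 lower with a median of 0.056. In R33 mice there were 32 and 41 with a median of -0.059, and in R55 mice 46 and 27 with a median of 0.057. At the unadjusted p these fits gave 6 members, all higher, among 585 genes, 3, 1 higher, among 601, and 10, 8 higher, among 1123. The fits of R33 and R55 mice were added after seeing the data. In single mice 32 to 48 members were higher in vehicle, 21 to 50 after R33 and 32 to 52 after R55. The treatments were not tested against each other. Leaving out R33 mouse N left 0 members among 360 genes at the unadjusted p, and leaving out vehicle mouse J left 1 among 396.

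Kcng4, the silent subunit described above, had the smallest p. In vehicle mice J, L, M and AH it measured 3.46, 4.58, 3.45 and 3.45 FPKM on the injected side and 2.52, 1.92, 2.61 and 2.97 on the contralateral side. In R33 mice K, N, O and AD the injected side measured 3.76, 6.11, 3.54 and 4.18 FPKM and the contralateral side 4.24, 2.67, 3.79 and 3.84. In R55 mice P, Q, R, AA and AB the injected side measured 3.65, 3.05, 4.78, 4.18 and 4.62 FPKM and the contralateral side 3.73, 1.81, 5.27, 3.37 and 4.34. The injected side was higher in 9 of 13 pairs, among them all 4 vehicle mice, where the sides did not overlap. The share of all genes with such a separation is not given here. The log2 difference was 0.24 (SE 0.099), and 0.25 with the mouse as a block. Its largest gaps were in mice L and N, the mice whose injected libraries had the highest striatal marker sums, and without mouse N the difference was 0.19. Kcnh2, the ERG channel that repolarises after long depolarisations, was higher in 10 of 13 pairs by 0.13 (SE 0.058) and 0.15 with the block. Kcna1, a Kv1 channel of axons, was higher in 8 of 13 pairs by 0.22 (SE 0.11). Kcnh5 was at 0.26 (SE 0.19), Kcns2, a silent subunit, at 0.13 (SE 0.093) and Kcnmb4 at -0.13 (SE 0.081).

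Kcnf1, a silent subunit that is the most abundant of its family, differed between the hemispheres in opposite senses in different treatments. On the injected side it measured 27.2, 28.1, 16.9 and 29.6 FPKM in vehicle mice J, L, M and AH, and on the contralateral side 27.7, 45.8, 17.9 and 32.2. After R33 it measured 24.3, 21.1, 14.9, 20.6 and 19.1 FPKM injected in K, N, O, AD and AE, and 30, 29.8, 26.4 and 31.4 contralateral in K, N, O and AD. After R55 it measured 30.1, 34.1, 26.0, 28.0 and 30.4 FPKM injected in P, Q, R, AA and AB, and 29.6, 29.3, 19.0, 25.7 and 27.1 contralateral. The injected side was lower in 4 of 4 vehicle pairs and 4 of 4 R33 pairs and higher in 5 of 5 R55 pairs. On the log2 scale the gaps were -0.025, -0.074 and -0.116 in vehicle mice J, M and AH, and -0.689 in L. In R55 mice P, AA and AB they were 0.026, 0.12 and 0.16, against 0.21 in Q and 0.431 in R. After R33 the injected and contralateral libraries did not overlap. The shares of all genes with such a split of directions or such a separation are not given here, so neither is read as particular to Kcnf1.

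The mean hemisphere difference of Kcnf1 on the log2 scale was -0.23 in vehicle, -0.54 after R33 and 0.19 after R55. The interaction of R55 and hemisphere against vehicle was 0.41 (SE 0.27, adjusted p = 1.0, limma), with an adjusted p of 0.819 when the mouse was a block, and the same interaction of R55 against R33 was not tested. Kcnf1 was chosen for this description by its abundance and its place among the smallest p, and its opposite senses were noticed afterwards.

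**Figure D5:**
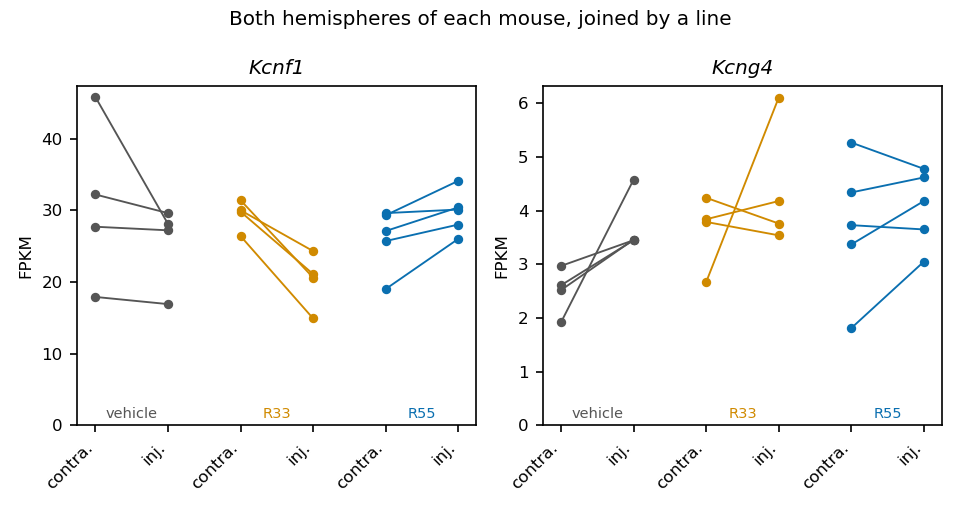
FPKM of Kcnf1 and Kcng4 in the contralateral and the injected hemisphere, with a line for each of 13 mice, by treatment. The Kcnf1 lines fall from contralateral to injected in all 4 vehicle and all 4 R33 mice and rise in all 5 R55 mice, and Kcng4 is higher on the injected side in 9 of 13 mice.

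The interaction asked whether the R55 difference against vehicle itself differed between hemispheres. No member passed the adjusted p in limma, against 0.0% of all genes, with a smallest adjusted p of 1.0, and voom was not run for this term. At an unadjusted p under 0.05 there were 2 members, 1 higher, against 0.605% of all genes, and 1 lower, against 1.3%. This term compares hemispheres within mice, and that fit has no mouse term. With the mouse as a block there were 6 members, 4 higher and 2 lower, among 825 genes, and with the correlation within mice modelled 7, 5 higher and 2 lower, among 846 genes. Both sets hold Kcnf1, Kcnma1, Kcna3, Kcnk9 and Kcnab3, with adjusted p of 0.819 and 0.813. Without the 2 libraries apart there were 4, against 2.22%, and all 4 were lower. Leaving out vehicle mouse L or R55 mouse P or AB left 0, among 106, 274 and 172 genes, and leaving out vehicle mouse M or R33 mouse AD gave 6, among 389 and 510 genes. In all, 33 members were higher and 40 lower, with a median of -0.023 against -0.031. With the length trend removed 1 member, Kcna3, had an unadjusted p under 0.05, among 220 genes. Kcnk9 and Kcnab3, the 2 of the first fit, then did not. With that trend removed 37 members were higher and 36 lower. Among the marker lists, all 6 oligodendrocyte markers were lower in the interaction with a median of -0.698 and all 6 striatal markers with a median of -0.561, 0 of them at an unadjusted p under 0.05; their part in the members was not tested.

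Kcnk9, the TASK-3 leak channel whose pair of filter runs is shown above, had the smallest p. In vehicle it measured 7.26, 6.67, 5.93 and 6.17 FPKM on the injected side of J, L, M and AH and 7.03, 8.66, 5.93 and 7.48 on the contralateral side. After R55 it measured 6.54, 6.92, 5.75, 5.84 and 7.77 FPKM injected in P, Q, R, AA and AB and 4.72, 4.23, 5.7, 6.25 and 6.29 contralateral. The injected libraries overlapped between treatments, and on the contralateral side P, Q and R lay below the vehicle libraries. The interaction was 0.37 (SE 0.17). Kcnab3, low in 2 contralateral vehicle libraries, was at -0.88 (SE 0.42). Kcna3, a Kv1 channel, was at 0.65 (SE 0.32), Kcnk1 at -0.26 (SE 0.13) and Kcnb2 at 0.33 (SE 0.18). With the length trend removed the interaction was 0.264 for Kcnk9, -0.815 for Kcnab3, 0.743 for Kcna3, -0.182 for Kcnk1 and 0.13 for Kcnb2.

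Genes that work with these channels but lack the prefix were counted from lists. Of 15 channel partners, such as scaffolds and auxiliary subunits, 14 were tested, led by Dlg2 at 62.0 FPKM, with Lrrc52 below the floor. After R55 2 were higher and 12 lower with a median of -0.094, but with the length trend removed 9 were higher and 5 lower. After R33 3 were higher and 11 lower with a median of -0.059, and 7 and 7 with the length trend removed. None passed the adjusted p in limma, and 1 had an unadjusted p under 0.05 in each, Lrrc38, a gamma subunit of BK channels, at 0.20 after R55 (adjusted p = 0.585) and 0.24 after R33 (adjusted p = 0.858). Cntnap2, which clusters Kv1 channels at the axon, was at -0.32 after R55 (adjusted p = 0.598), and Abcc9, a sulfonylurea receptor subunit of Kir channels, at -0.22 after R33 (adjusted p = 0.858).

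Of 4 pacemaker channels, led by Hcn2 at 73 FPKM, 3 were lower after R55 with a median of -0.184 and 3 after R33 with a median of -0.176, in every scaling tried. Of 10 genes of potassium transport, led by the sodium pump subunit Atp1b1 at 696 FPKM, 6 were higher in each of those comparisons, with 5 in the median-of-ratios scaling and 7 after R33 without the 2 libraries apart. Between R55 and R33, 5 partners, 2 pacemaker and 7 transport genes were higher, the last falling to 3 without the 2 libraries apart, with Slc12a2 at -0.18 and Cntnap2 at -0.17. On the injected side 10 partners (7 with the length trend removed), 2 pacemaker and 7 transport genes were higher, with Atp1b2 at 0.13 and Hcn2 at 0.10. In the interaction 7 partners, 3 pacemaker and 3 transport genes were higher. None of the 28 tested genes of these lists passed the adjusted p in any of the 5 comparisons.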

How the data were processed

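The authors deposited FPKM for 32 libraries aligned to GRCm39 with HISAT2; the counter, its annotation and its strand setting are not stated. Of these, 27 libraries were used and 5 were not used here. The 32 leftover header lines were dropped. Each value above 0 was checked to equal a whole number of fragments, to 0.01, so fragments and transcript lengths were recovered. The design assumed FPKM; limma 3.58.1 in R 4.3.3 was fitted to log2 values with a pseudocount of 1, with an intensity trend, over the 14225 genes whose mean reached 0.5 FPKM, and 95% intervals come from the same fit. The fit was tested on simulated data. Calls were made at an adjusted p under 0.05. The fit has no mouse term, so libraries of a mouse count as separate; the modelled correlation within mice was 0.34. After removal of group means, hemispheres of the 13 paired mice correlated with a median r of 0.441, 11 of 13 over 0.1, and 10 correlated best with their own mouse. The injected libraries of N, O and Q correlated better with the contralateral library of K, N and P, and the labels were kept. Length trends were removed by lowess with a span of 0.3. Alternatives were median-of-ratios scaling, voom, a pseudocount of 0.1, a floor of 1 FPKM or none, the mouse as a block, a modelled correlation or 1 value per mouse, each hemisphere alone, vehicle mice alone for the hemispheres, only the treatments compared, the number of letters in the mouse label as a covariate, length trend removal and leaving out each mouse; leaving out the 2 libraries apart, R33 or R55 mice alone for the hemispheres, and combinations with length removal, were added after seeing the data. Positions come from GENCODE M39, matched by symbol for 72 of 73 members. Tables and plots used Python 3.11.15, numpy 2.4.6, pandas 2.3.3 and matplotlib 3.10.9.

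Members named with values are the 8 most abundant, the most abundant of each family, up to 8 with the smallest unadjusted p in each comparison, and the 3 on either side of the floor; others are marked where they appear. Some single genes and sequences are not reported here. The genes whose filter sequences or lack of a filter run are given were chosen after the matches were seen. The members and lists were chosen with earlier results of these data known.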

Additional observations from a re-analysis of the deposited data

Results flagged for a closer look

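Single libraries that lay far from the rest of their group, by the gap to the nearest library as a share of the group's range, were found in 24 of 288 groups (8.33%). Chance gives about 5% for quantities chosen without regard to their values. The choroid plexus list was chosen after its high libraries were seen, and Kcne2 passed the floor through a few libraries. The share is thus not read against chance. Of these, 7 fell on vehicle injected L and 4 on vehicle contralateral J. In vehicle injected L, FPKM were 42.3 for Kcnab3, 0.604 for Kcnj13, 4.58 for Kcng4, 0.575 for Kcne2 and 40.7 for Kcna1, all high. The same library had a high sum of striatal markers, 191, and of choroid plexus markers, 153. Vehicle contralateral J was high in Kcnj13 at 4.06, Kcne2 at 5.74, Kcnd3os at 1.04 and the choroid plexus sum at 1150. R33 injected N was high in Kcng4 at 6.11 and in the striatal sum at 281.

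R55 injected R was high in Kcnab3 at 48.6 and Kcnmb4 at 12.6, and R55 contralateral R in Kcnj10 at 132. R55 injected AA was low in Kcna1 at 26.8, and R33 contralateral AD was low in Kcnb2 at 1.6. R55 injected P was high in Kcne2 at 0.318 and in the choroid plexus sum at 70.4. Kcnab2 was high in vehicle injected M at 268, and Kcnk9 in R33 injected O at 7.59. The GABAergic sum was high in vehicle contralateral AH at 553. The endothelial sum of vehicle injected AH, 34.6, was low in its group, and over the treatments the sums of all 9 libraries of mice with 2 letters in the label ran from 24.2 to 38.8, against 40.4 to 103 in the other 18.

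The difference of Kcnf1 between injected and contralateral hemispheres was -0.226 in vehicle mice, lower in 4 of 4, and 0.189 in R55 mice, higher in 5 of 5, with an interaction that did not pass the adjusted p. It was -0.537 in R33 mice, lower in 4 of 4, and the difference between R33 and R55 mice was not tested. The share of all genes with such a split of directions is not given here.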

How the results depend on the processing

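No member passed the adjusted p in any of the 5 comparisons under the alternatives run for it. The interaction was run with the mouse as a block, the modelled correlation, the length trend removed, each mouse left out and without the 2 libraries apart, and not with the other scalings, floors, pseudocount, voom or covariate. At an unadjusted p under 0.05 the count of members with each mouse left out ran from 6 to 17 for R55 against vehicle, 1 to 11 for R33 against vehicle, 0 to 7 for R55 against R33, with the highest without R33 mouse AD, 0 to 5 for injected against contralateral and 0 to 6 for the interaction. All genes at that p ran from 665 to 1764, 523 to 1741, 123 to 1473, 360 to 777 and 106 to 510 in the same order, and the highest count for R55 against R33 went with 1473. The median log2 fold change of the members with each mouse left out ran from -0.038 to 0.041, -0.046 to 0.031, -0.013 to 0.034, -0.006 to 0.041 and -0.065 to 0.032 in the same order.

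The median for R33 against vehicle, -0.030, was 0.052 in the contralateral hemisphere alone and 0.044 there with the length trend removed, and that for R55 against R33, 0.009, was 0.109 in the injected hemisphere alone and -0.059 in the contralateral one alone; the cause was not tested. For injected against contralateral, 0.028, it was -0.059 in R33 mice alone with the mouse as a block, and -0.006 without R55 mouse Q. Kcnb2 for R55 against vehicle was 0.064 in the injected hemisphere alone with the length trend removed. For R55 against R33, Kcnf1 was -0.178 in the contralateral hemisphere alone and -0.151 there with the length trend removed, where Kcnmb4 was -0.012. For injected against contralateral, with the mouse as a block, Kcnf1 was 0.189 in R55 mice alone and Kcnh5 -0.085 in R33 mice alone. The cause of these reversals was not tested. Of 5350 values of named genes under alternatives, 61 moved by more than 1 SD between mice. Depth limits Kcne2, with a median of 5 fragments, and Kcna5, with 50. Hemispheres of a mouse are not independent, groups hold 4 or 5 mice, and FPKM carry a length trend, so small differences in long transcripts cannot be read apart from it.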
